A study of Gallus gallus with 24 samples.

Results

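The heterophil granule genes are 7 genes of the chicken, CAMP, AvBD2, LYG2, LECT2, S100A9, PI3 and SERPINB10B. Their products are known from the granules, cytoplasm or chromatin of granulocytes, or resemble such products. The 7 genes were taken by name from a table of read counts for 24154 genes, and all 7 passed the filter on low counts. They were chosen by measured values of these same libraries. Among genes with a symbol, a mean of at least 2 CPM (reads of a gene scaled to the library's total) and an adjusted p under 0.05, all 7 are among the 10 whose left-right difference fell most from embryonic day (E) 5 to E9.5. The last of them in that order, CAMP, had a log2 change in the side difference of -4.09, and the first gene after it was AvBD1, also at -4.09. Left-right values at E5, E6.5 and E9.5, and changes from E5 to E9.5, are therefore given as a description, and a count of members called in them carries no weight of its own.

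Poly(A) RNA came from gonads of female Leghorn embryos, left and right kept apart, at E5, E6.5, E8 and E9.5. Leghorn is a layer breed, and in female birds the left gonad grows into the ovary while the right one regresses. Each side and stage has 3 libraries, 24 in all, with no treatment, no transgene and no male samples among them. The labels do not say whether a library is 1 embryo or a pool, nor whether the libraries of a group come from separate embryos, so the spread between them may be technical. Whole gonads were sequenced, so more cells of a type and more RNA per cell cannot be told apart.

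Heterophils are the avian counterpart of mammalian neutrophils. They arise from myeloid precursors, carry granules loaded with antimicrobial peptides, lysozyme and protease inhibitors, and lack the myeloperoxidase on which neutrophils rely. In mammals the transcripts of granule proteins are made chiefly by immature and maturing granulocytes, and the finished cells carry the stored proteins. In the bird embryo granulocytes form mainly outside the blood vessels, first in the yolk sac and later in the bone marrow.

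Library totals ran from 15078282 to 19970859 counts, a ratio of 1.32, and the model across genes had a biological coefficient of variation of 0.212. For the tissue label, marker genes of gonadal soma and germ cells were read, of which 16 of 16 were in the table. The table also holds genes without reads, so being in it is no check of the label. The summed level of these marker genes ran from 942 CPM in an E5 right library to 8333 CPM in an E9.5 right library. Every member had reads in every library. At the low end the counts were small, with 2 to 5 reads of PI3 in each E5 right library and 3 to 5 reads of CAMP in each E6.5 right library, so levels there are known only roughly.

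The summed level of the 7 genes was higher in the left gonad at E5 and E6.5. It had no clear side at E8 and was higher in the right gonad at E9.5. PI3 departed from this course. It reached at most 3.11 CPM on the left at E5, overlapped between sides at E6.5, and was higher on the right at E8 without overlap. At E5 the summed level of the 7 was 154, 105 and 351 CPM in the 3 left libraries and 38.7, 33.6 and 25.5 CPM in the 3 right ones. At E6.5 it was 66.7, 52.2 and 117 CPM on the left against 12.2, 8.44 and 11.3 CPM on the right. The left libraries stood above all right ones at both stages. The right libraries were all lower at E6.5 than at E5, while the left ranges of the 2 stages met at 105 and 117 CPM.

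At E8 the sum was 6.27, 13.6 and 20.7 CPM on the left and 8.77, 18.9 and 18.6 CPM on the right, with the groups interleaved. At E9.5 it was 5.90, 10.2 and 33.9 CPM on the left and 52.3, 49.9 and 59.5 CPM on the right. The right libraries then lay close together and above every left one, while the left libraries were spread over a wide range. LECT2 gives more reads to the sum than any other member in each E5 library, so the sums follow it more than the others.

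**Figure D1:**
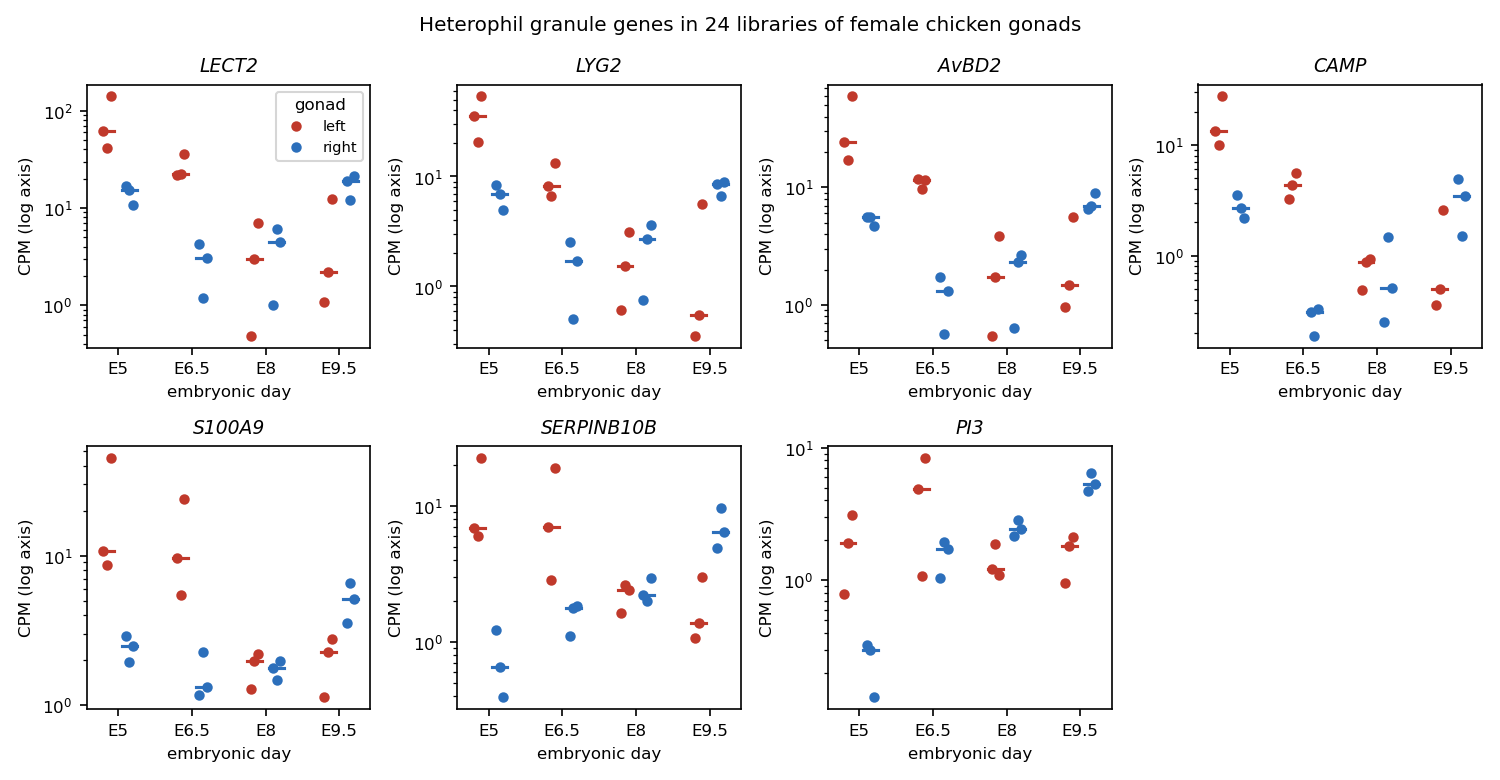
Level of each of the 7 genes in the 24 libraries, in CPM on a log axis, by embryonic day; each point is a library (red left gonad, blue right gonad) and each bar the median of 3. Left points lie above right points for all 7 genes at E5, and right medians lie above left medians for all 7 at E9.5.

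Some libraries were the highest or lowest of their group in all 7 genes or nearly all. Within the E5 left group, replicate 3 was highest for 7 of 7 genes. Within the E9.5 left group, replicate 3 was highest for 7 of 7 and replicate 1 lowest for 7 of 7. E6.5 left replicate 3 was highest for 6 of 7, and E8 left replicate 1 was lowest for 6 of 7. The same was seen at E5 on both sides. Left replicate 2 was lowest for 6 of 7, right replicate 1 highest for 6 of 7 and right replicate 3 lowest for 6 of 7.

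CAMP and AvBD2 encode antimicrobial peptides. CAMP is the older name in the table for the gene that RefSeq on GRCg7b calls CATH2, a cathelicidin stored as a precursor in heterophil granules and freed by proteolysis when they are emptied. Its level at E5 was 13.4, 9.999 and 27.4 CPM on the left and 3.56, 2.66 and 2.17 CPM on the right. At E6.5 the libraries read 3.24, 4.30 and 5.63 CPM against 0.307, 0.189 and 0.330 CPM, and no left library overlapped a right one at either stage. At E9.5 the order was turned, with 0.358, 0.495 and 2.58 CPM on the left and 4.94, 1.51 and 3.46 CPM on the right, but left replicate 3 lay above right replicate 2.

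AvBD2 is an avian beta-defensin, a small cationic peptide of heterophil granules that damages bacterial membranes, and RefSeq lists it as DEFB4A. At E5 it stood at 24.4, 17.1 and 59.4 CPM on the left and 5.56, 5.62 and 4.72 CPM on the right. At E6.5 the left libraries were close together at 11.8, 9.62 and 11.5 CPM, against 1.72, 0.567 and 1.32 CPM on the right. By E9.5 the left libraries had 0.954, 1.48 and 5.63 CPM and the right ones 6.53, 6.89 and 8.89 CPM. The groups did not overlap at any of these 3 stages, with left above right at the first 2 and below it at the last.

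LYG2 encodes a goose-type lysozyme, an enzyme that cleaves the peptidoglycan of bacterial walls. Its level at E5 was 35.5, 20.8 and 53.4 CPM on the left and 8.34, 6.93 and 4.99 CPM on the right. The E6.5 values were 8.20, 6.63 and 13.3 CPM against 2.52, 0.504 and 1.71 CPM. At E9.5 left replicates 1 and 2 held 6 and 10 reads, or 0.358 and 0.549 CPM, replicate 3 stood at 5.58 CPM, and the right libraries at 8.56, 6.58 and 8.89 CPM. This made the spread of the E9.5 left group wide, at 2.16 ± 2.96 CPM (SD, n = 3), against 8.01 ± 1.25 CPM in the right group.

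LECT2 is the chicken MIM1 gene, known as a target of the transcription factor MYB and expressed in promyelocytes, the stage at which primary granules form. At E5 it was at 62.4, 41.0 and 140 CPM on the left and 16.8, 15.5 and 10.6 CPM on the right. At E6.5 it was at 22.0, 22.2 and 35.6 CPM against 4.30, 1.20 and 3.03 CPM, so that the lowest left library was above every right one. At E9.5 the left libraries had 1.07, 2.20 and 12.2 CPM and the right ones 19.1, 12.2 and 21.4 CPM. Left replicate 3 and right replicate 2 met at that stage, with 12.24 and 12.22 CPM, and the other left libraries were far below.

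S100A9 encodes a calcium-binding protein of the cytoplasm of myeloid cells, and RefSeq on GRCg7b names the chicken gene S100A12. At E5 its level was 10.7, 8.61 and 45.0 CPM on the left and 2.91, 1.95 and 2.49 CPM on the right. At E6.5 it was 9.66, 5.50 and 24.1 CPM against 1.17, 2.27 and 1.32 CPM. The left libraries of E5 and E6.5 covered overlapping ranges, and left was above right in every library of both stages. At E9.5 the libraries read 1.13, 2.25 and 2.79 CPM on the left and 3.55, 6.58 and 5.16 CPM on the right, again with no overlap.

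PI3 and SERPINB10B belong to families of protease inhibitors. In humans PI3 encodes elafin, an inhibitor of neutrophil elastase. In the chick gonads it was at 0.784, 1.90 and 3.11 CPM on the left at E5 and 0.323, 0.296 and 0.131 CPM on the right. The groups overlapped at E6.5, with 4.89, 1.08 and 8.36 CPM on the left and 1.04, 1.95 and 1.71 CPM on the right. At E9.5 it was at 0.954, 1.81 and 2.12 CPM on the left and 4.69, 6.42 and 5.36 CPM on the right. Its right libraries lay above all right libraries of every earlier stage at E6.5, E8 and E9.5 in turn, while its left values at E9.5 lay within the range of those at E5.

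SERPINB10B is known as MENT, a serpin of chicken granulocytes that inhibits cysteine proteases and binds and compacts chromatin as these cells mature. Its level at E5 was 6.94, 6.01 and 22.5 CPM on the left and 1.23, 0.651 and 0.394 CPM on the right, the latter from 19, 11 and 6 reads. At E6.5 the left libraries had 6.97, 2.87 and 18.9 CPM and the right ones 1.11, 1.76 and 1.85 CPM. The left value at that stage depends on replicate 3: the log2 left-right difference was 2.61 with it and 1.62 without it. At E9.5 the left libraries had 1.07, 1.37 and 2.99 CPM and the right ones 4.94, 9.66 and 6.40 CPM.

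Fitted over all genes, the left-right differences at E5 ran from log2 2.44 ± 0.71 (SE) for LYG2, a fold of 5.41, to 3.95 ± 0.66 for SERPINB10B, a fold of 15.5. For 7 of 7 members every left library lay above every right one, and 9.31% of all genes tested were higher on the left without overlap. By edgeR's quasi-likelihood test 5 of 7 were called higher on the left at an adjusted p under 0.05, as were 1.92% of all genes tested. That count was 2 without left replicate 3 and likewise without right replicate 1, 2 or 3. It was 6 with DESeq2 and 7 when same-numbered left and right libraries were compared within each stage.

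At E6.5 the differences ran from 1.60 ± 0.53 for PI3 to 3.96 ± 0.74 for CAMP. For 6 of 7 members the groups did not overlap, PI3 being the exception, and 9.48% of all genes tested were higher on the left without overlap. CAMP, with its few reads on the right, had the largest fold among the members at this stage, 15.6.

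At E9.5 all 7 differences were negative, from -1.30 ± 0.57 for S100A9 to -1.94 ± 0.59 for SERPINB10B, which is 2.47-fold and 3.83-fold more in the right gonad. Groups did not overlap for 5 of 7, CAMP and LECT2 being the exceptions, against 15.8% of all genes tested that were lower on the left without overlap. The edgeR test called 2 of 7 lower on the left, PI3 and SERPINB10B, and 7.87% of all genes tested. With a replicate block, which fits an effect of each replicate number shared by all stages and both sides, 5 were called. With the block set within each stage, so that same-numbered left and right libraries are compared, 6 were called. The count was 0 without left replicate 1, left replicate 2 or right replicate 2, 1 without right replicate 3, and 5 without left replicate 3, the left library in which all 7 genes were highest.

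The ranking that picks out the 7 genes uses the left-right contrasts of E5 and E9.5. E6.5 is outside it but is described without a test, because earlier results at that stage were known. That leaves E8 as the side contrast tested, and none of the 7 passed there. The members were chosen with earlier left-right results known, so the E8 test is no independent support either. The differences ran from 0.14 ± 0.66 for AvBD2 to -0.82 ± 0.54 for PI3, with adjusted p from 0.978 for CAMP to 0.330 for PI3 (edgeR, 3 libraries a side). Of the 7, 0 were called, 0 had an unadjusted p under 0.05 and 0 were called by DESeq2, while 14.3% of all genes tested were called in one direction or the other. PI3 was at 1.22, 1.86 and 1.10 CPM on the left and 2.15, 2.83 and 2.43 CPM on the right, with no overlap, the order it had at E9.5. The remaining 6 genes overlapped between sides.

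The standard errors at E8 were as large as 0.80 (LECT2), and the reads were few and scattered. LECT2 had 8, 48 and 122 reads in the left libraries and 16, 95 and 80 in the right ones. A side difference of the size fitted for LECT2 at E9.5, -1.75 ± 0.75, might therefore go undetected at E8. CAMP stood at 0.487, 0.869 and 0.926 CPM on the left and 0.252, 1.48 and 0.508 CPM on the right.

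**Figure D2:**
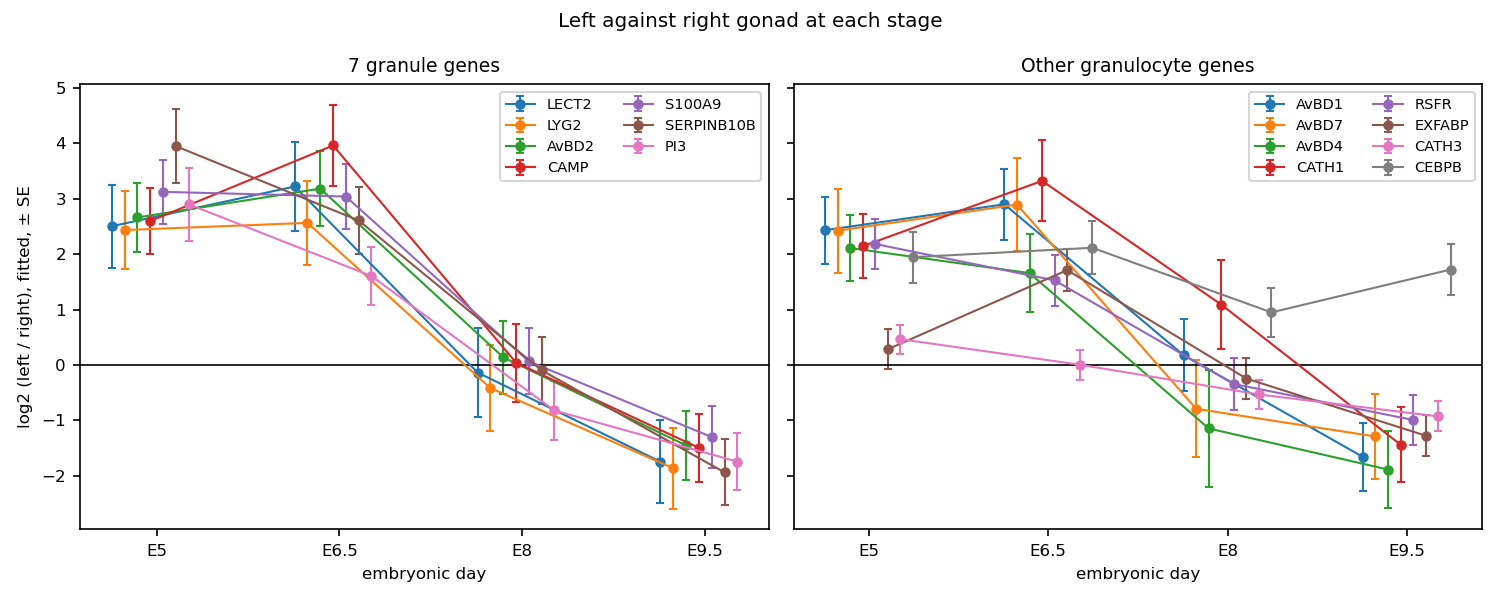
Fitted log2 left-right difference with its SE at each of the 4 stages, for the 7 granule genes (left panel) and for 8 other genes of granulocytes (right panel), 3 libraries per side and stage. The 8 were chosen by hand and do not stand for all granulocyte genes. Effector genes tested but not drawn are LYGL, SERPINB1, S100A11, CTSG, MMP9, MPO, SRGN and AvBD6. Their Pearson r with the mean pattern of the 7 was -0.44, 0.04, -0.02, -0.02, 0.12, 0.52, 0.79 and 0.81 in that order. All 7 granule genes lie above 0 at E5 and E6.5 and below 0 at E9.5, whereas CEBPB lies above 0 at every stage.

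The left gonad had less of 6 of the 7 transcripts at E9.5 than at E5, and on the right all 7 fitted changes were above 0. From E5 to E9.5 on the left, 5 genes had log2 changes of like size, from -3.37 ± 0.59 for S100A9 to -4.06 ± 0.77 for LYG2, which is 10.3-fold to 16.6-fold. SERPINB10B had -2.69 ± 0.60 and PI3 -0.24 ± 0.53. The test called 6 of 7 lower at E9.5, all but PI3, as it did 16% of all genes tested.

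On the right the sum was lower in every E6.5 library than in every E5 one, and at E9.5 it was above all of E5. CAMP, LYG2 and LECT2 ended close to where they began, with log2 changes from E5 to E9.5 of 0.23 ± 0.58, 0.24 ± 0.69 and 0.29 ± 0.72. AvBD2 had 0.49 ± 0.60 and S100A9 1.06 ± 0.56, with no overlap of the E5 and E9.5 right libraries for either. PI3 stood far apart at 4.41 ± 0.65, a fold of 21.2 on a base of 2 to 5 reads, and SERPINB10B at 3.20 ± 0.65, a fold of 9.18. The test called these last 2 of 7 higher at E9.5, and 21.5% of all genes tested.

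The change in the side difference from E5 to E9.5, by which the members were selected, ran from -4.09 ± 0.85 for CAMP to -5.89 ± 0.89 for SERPINB10B. It was called for 7 of 7, against 1.34% of all genes tested with a fall of the left-right difference, and nothing is read from that count. The parts that make up the change differ by gene. In CAMP, AvBD2, LYG2 and LECT2 the loss on the left makes up most of it, in PI3 the gain on the right does, and in SERPINB10B both contribute.

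Over the 24 libraries CAMP, AvBD2, LYG2 and LECT2 thus shared a pattern and PI3 had another, with S100A9 and SERPINB10B between them. Across libraries the log2 CPM of AvBD2 and LECT2 had a Pearson r of 0.99, LYG2 and LECT2 0.98, and CAMP and LECT2 0.94. PI3 had 0.11 with CAMP, 0.15 with LECT2 and 0.78 with SERPINB10B. SERPINB10B had 0.61 with CAMP, 0.62 with LECT2, 0.63 with LYG2 and 0.66 with AvBD2. S100A9 had 0.83 with LECT2 and 0.85 with SERPINB10B. These are descriptions over libraries that differ in stage, side and depth, so differences between the groups enter these values.

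Much of the likeness remained after the 8 group means were taken out. For the deviations of single libraries from their group mean r was 0.97 between AvBD2 and LECT2, 0.95 between LYG2 and LECT2, and 0.83 between CAMP and LECT2. PI3 and SERPINB10B had 0.83 and S100A9 and SERPINB10B 0.89, while S100A9 and LECT2 had 0.41. Within groups S100A9 thus varied more like the 2 inhibitors than like LECT2 in these libraries.

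Ratios of reads within a library, which need no scaling between libraries, also set PI3 apart from LECT2 and AvBD2. A ratio of 2 genes depends on their lengths, so only its change between libraries is read. LECT2 to AvBD2 lay between 2.25 and 3.02 in the 6 E5 libraries and between 1.77 and 2.92 in the E9.5 right ones. It was 1.86 to 3.09 in the E6.5 left libraries and 2.11 to 2.50 in the E6.5 right ones, 0.889 to 1.82 and 1.60 to 2.64 at E8, and 1.13 to 2.17 in the E9.5 left ones. LECT2 to CAMP ran from 4.10 to 5.80 at E5, from 5.17 to 6.77 in the E6.5 left libraries and from 6.33 to 14 in the E6.5 right ones. Those E6.5 right ratios rest on 3 to 5 reads of CAMP. At E8 this ratio ran from 1 to 8.89 and at E9.5 from 3 to 8.07. LECT2 to PI3 went another way: it was 52.0, 52.2 and 81.0 in the E5 right libraries and 4.07, 1.90 and 3.99 in the E9.5 right ones. The E5 right ratios rest on 5, 5 and 2 reads of PI3.

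At E5 the LECT2 to PI3 ratio was also high on the left, at 79.5, 21.6 and 45.0, against 4.49, 20.7 and 4.26 in the E6.5 left libraries. LECT2 to SERPINB10B, however, differed by side at E5, with 6.23 to 8.99 on the left and 13.7 to 27.0 on the right. S100A9 to SERPINB10B was 2.37 to 6.33 in the E5 right libraries and lower in every later right one, at 0.714 to 1.29 at E6.5, 0.673 to 0.800 at E8 and 0.681 to 0.806 at E9.5. On the left it was 1.43 to 2 at E5, 1.27 to 1.92 at E6.5, 0.762 to 0.905 at E8 and 0.931 to 1.64 at E9.5, so the left ranges of E5, E6.5 and E9.5 overlapped.

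**Figure D3:**
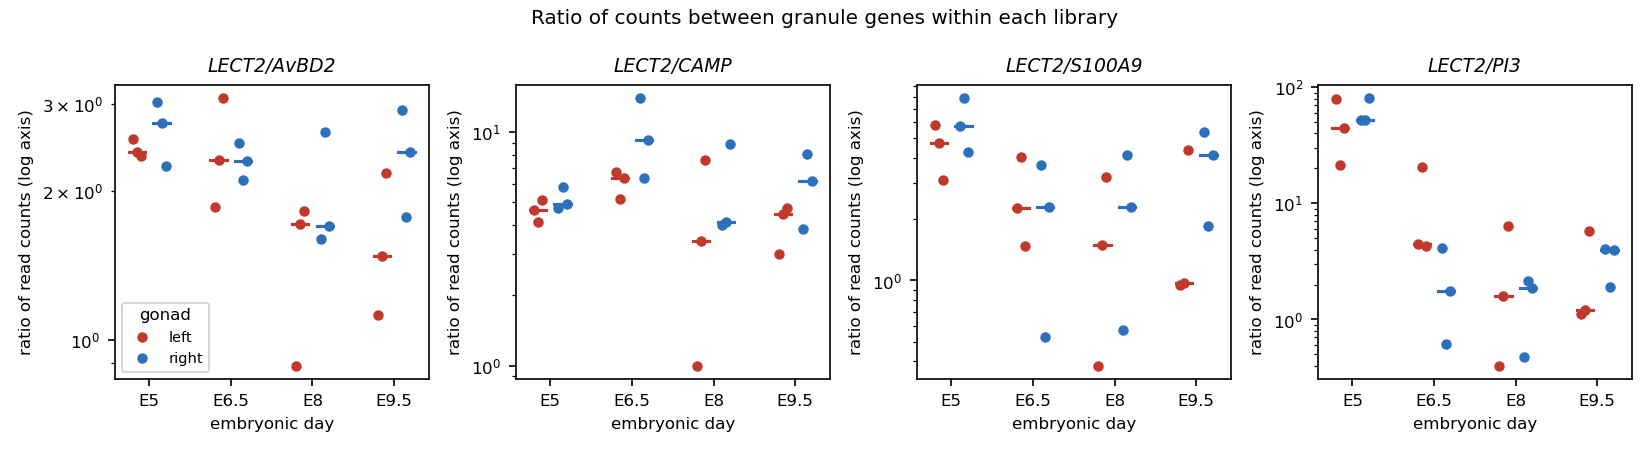
Ratio of the read counts of LECT2 to those of AvBD2, CAMP, S100A9 and PI3 in each of the 24 libraries, on log axes by embryonic day; points are libraries (red left, blue right) and bars medians of 3. The ratio to PI3 is highest at E5 on both sides, and the E5 right libraries (52.0 to 81.0) lie far above the E9.5 right ones (1.90 to 4.07).

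Other genes of granulocyte effector molecules, listed from general knowledge, were read alongside. Of 31 names 19 were in the table and 15 passed the filter, and the list was made with earlier results of these libraries known. Its median left-right difference was 1.16 at E5, 1.42 at E6.5, -0.22 at E8 and -1.03 at E9.5. The median of all genes tested lay between -0.04 and 0.03 in every comparison made. Higher and lower calls on the left numbered 2 and 0 at E5, 3 and 0 at E6.5, 0 and 1 at E8, and 1 and 2 at E9.5. Over all genes tested the shares called higher and lower on the left were 1.92% and 1.02% at E5, 2.67% and 0.575% at E6.5, 7.54% and 6.71% at E8, and 5.13% and 7.87% at E9.5. AvBD1 and RSFR stand at places 11 and 13 in the ranking whose first 10 hold the members.

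At E5 the 2 called were AvBD1 and RSFR. AvBD1, the defensin gene next to AvBD2, was at 20.6, 12.2 and 45.9 CPM on the left and 7.05, 3.91 and 3.61 CPM on the right (log2 2.43 ± 0.60, adjusted p = 0.030, edgeR). RSFR, a secreted leukocyte ribonuclease, was at 11.9, 6.77 and 20.9 CPM against 3.10, 4.20 and 1.38 CPM (2.18 ± 0.45, adjusted p = 0.0085). Left libraries were above right ones in both genes. Each lost its call without left replicate 3, with adjusted p = 0.20 and 0.071, and over all settings adjusted p ran from 0.0013 to 0.20 for AvBD1 and from 8.5e-05 to 0.073 for RSFR. Further losses came for AvBD1 without right replicate 1 (0.054), 2 (0.12) or 3 (0.14), and for RSFR without right replicate 3 (0.061). With the replicate block 4 genes of the list were called, and 5 with the block within stage.

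At E6.5 the 3 called were AvBD1 (2.90 ± 0.64, adjusted p = 0.016), the cathelicidin gene CATH1 (3.32 ± 0.73, adjusted p = 0.015) and EXFABP (1.71 ± 0.37, adjusted p = 0.014, edgeR), which encodes a lipocalin that binds bacterial siderophores. CATH1 was at 2.26, 1.43 and 1.56 CPM on the left and 0.368, 0.0630 and 0.0659 CPM on the right. AvBD1 and CATH1 were not called without right replicate 2 (adjusted p = 0.071 and 0.066) or right replicate 3 (0.096 for both), and their adjusted p over all settings ran from 1.2e-04 to 0.096 and from 6.1e-04 to 0.096. EXFABP was not called without left replicate 3 (0.086), right replicate 1 (0.079) or right replicate 3 (0.078), in a range from 3.1e-04 to 0.29.

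At E9.5 EXFABP was lower on the left, at 3.04, 3.85 and 3.67 CPM against 7.42, 10.7 and 7.52 CPM (log2 -1.28 ± 0.37, adjusted p = 0.028, edgeR). CATH3, a cathelicidin gene beside CAMP, was lower as well, at 2.56, 3.63 and 3.46 CPM against 6.91, 5.95 and 5.56 CPM (-0.93 ± 0.27, adjusted p = 0.030). SERPINB1, an inhibitor of neutrophil proteases in mammals, was the one called the other way (1.31 ± 0.40, adjusted p = 0.037). With the replicate block 5 of the list were called, and 6 with the block within stage. Calls of the list numbered 0 to 4 with 1 library left out, and 0 without left replicate 1, left replicate 2 or right replicate 2. EXFABP lost its call without any left library or right replicate 2, CATH3 without any left library or right replicate 1 or 2, and SERPINB1 without left replicate 1 or 2 or right replicate 2. Over all settings adjusted p ran from 0.0082 to 0.12 for EXFABP, from 0.015 to 0.13 for CATH3 and from 0.016 to 0.15 for SERPINB1.

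At E8 the call was LYGL, the lysozyme gene next to LYG2, at 0.921 CPM on the left and 2.04 CPM on the right (mean of 3, log2 -1.14 ± 0.34, adjusted p = 0.030, edgeR). LYGL rose from E5 to E9.5 on both sides (1.84 ± 0.36 on the left, adjusted p = 4.8e-04, and 1.31 ± 0.34 on the right, adjusted p = 0.0049, edgeR). The E8 call was lost without left replicate 1, 2 or 3 (adjusted p = 0.13, 0.082 and 0.065) or right replicate 1 or 2 (0.15 and 0.093), and the adjusted p ran from 0.021 to 0.15 over all settings. The right-gonad rise was not called without E9.5 right replicate 2 (adjusted p = 0.061), in a range from 0.0018 to 0.061. LYG2 went the other way over time on the left alone (-4.06 ± 0.77), with 0.24 ± 0.69 on the right. Its left-right difference at E8, -0.42 ± 0.77, had the same sign as that of LYGL.

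From E5 to E9.5 the left gonad lost these transcripts broadly: 11 of 15 were lower and 2 higher, with a median of -1.34, against 16% and 18.2% of all genes tested. AvBD1 fell by 3.70 ± 0.64 on the log2 scale (adjusted p = 1.3e-04, edgeR), and AvBD7 (-3.73 ± 0.81, adjusted p = 0.0011), AvBD6 (-4.01 ± 0.87, adjusted p = 0.0012) and CATH1 (-3.75 ± 0.65, adjusted p = 1.3e-04) were lower by like amounts. These 4 calls held under every setting that gave a value, with a highest adjusted p of 0.0105, for AvBD6. In the right gonad 2 of 15 were higher and 1 lower with a median of 0.40, where 21.5% of all genes tested were called higher and 16.1% lower, so these counts do not stand above the background. AvBD7 was at 5.64 CPM at E5 and 5.60 CPM at E9.5. The gene for cathepsin G, CTSG, a protease of mammalian neutrophil granules, rose on the right from 1, 0 and 1 reads in the E5 libraries to 16, 40 and 23 reads at E9.5 (adjusted p = 0.0013), and S100A11 fell there by 0.90 ± 0.19 (adjusted p = 6.9e-04).

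The change of the side difference from E5 to E9.5 was called for 5 of the 15, each lower, as were 1.34% of all genes tested: AvBD6 (-4.67 ± 1.19, adjusted p = 0.041), AvBD1 (-4.09 ± 0.86, adjusted p = 0.013), AvBD4 (-4.00 ± 0.91, adjusted p = 0.021), CATH1 (-3.58 ± 0.89, adjusted p = 0.036) and RSFR (-3.18 ± 0.64, adjusted p = 0.0089, edgeR). The list's median was -2.03, beside -0.01 over all genes. AvBD1 and RSFR were called under every setting tried. They stand at places 11 and 13 in the ranking by this same change that picks the members. The list was made with earlier results known, so none of the 5 calls is an independent result. AvBD6 and CATH1 are low in reads, at most 3.43 and 6.86 CPM in any library, and the list's count was 2 to 5 with 1 library left out. Leaving out any of the 12 libraries other than E5 left replicate 2 ended the call of AvBD6 (adjusted p from 0.0502 to 0.12), and the same held for CATH1 except with E9.5 left replicate 3 (0.053 to 0.11). AvBD4 was not called without E5 left replicate 3, E5 right replicate 2, E9.5 left replicates 1 or 2 or E9.5 right replicate 3 (0.059 to 0.075). Over all settings adjusted p ran from 0.013 to 0.12 for AvBD6, 0.0031 to 0.11 for CATH1 and 0.0056 to 0.075 for AvBD4.

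MPO, whose product avian heterophils are known to lack, had reads in every library at 0.820 to 4.64 CPM and was not called between sides at any stage, with adjusted p from 0.55 at E6.5 to 0.90 at E5 (edgeR). It was lower in the left gonad at E9.5 than at E5 (-1.15 ± 0.37, adjusted p = 0.019), but not without E5 left replicate 1 or E9.5 left replicate 1 (adjusted p over all settings 0.0088 to 0.11). MMP9, a gelatinase of granulocyte granules, was at 1.72 to 13.8 CPM and not called between sides, with adjusted p from 0.20 at E9.5 to 0.98 at E6.5.

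Over all genes with a symbol, those most like the mean pattern of the 7 across the 24 libraries were AvBD1 (Pearson r 0.94), RSFR (0.89), AvBD4 (0.89), CATH1 (0.88), AvBD7 (0.87), TGM3 (0.85), SERPINB10A (0.83), SLC45A3 (0.83), PDGFA (0.81) and AvBD6 (0.81). Without the 2 libraries farthest from the median, E5 left replicate 3 and E6.5 left replicate 3, these values ran from 0.72 for PDGFA to 0.92 for AvBD1. When the group means were taken out, AvBD1 alone stayed among the first 10, with r 0.83. On raw totals the same 10 genes came first.

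In the RefSeq annotation of GRCg7b, all 7 members matched a gene by symbol or synonym. AvBD2 stands between AvBD6 and AvBD1 in the row of defensin genes, CAMP between CATH3 and CATHB1 with CATH1 beyond, LYG2 next to LYGL, and SERPINB10B next to SERPINB10A. Likeness to the members did not follow position alone. In the defensin row AvBD1, AvBD4, AvBD6 and AvBD7 had r from 0.81 to 0.94, but AvBD9 had -0.12, AvBD10 -0.15 and AvBD14 0.02. Next to CAMP, CATH1 had 0.88 and CATH3 0.53. LYGL had -0.44 with the members' pattern and SERPINB10A 0.83. Such neighbours are related in sequence, and how the counting treated reads that fit more than 1 of them is not given in the sources used here, so the split of reads between them is uncertain.

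Genes of granulocyte regulation mostly took another course than the granule genes. The granule genes were selected by the change of their side difference, so this contrast carries no weight. Of 32 names 21 were tested, with 1 higher and 2 lower on the left at E5, 1 and 0 at E6.5, 4 and 4 at E8 and 2 and 3 at E9.5. Of all genes tested, 1.92% were called higher and 1.02% lower at E5, 2.67% and 0.575% at E6.5, 7.54% and 6.71% at E8 and 5.13% and 7.87% at E9.5. For the change in side difference 0 were higher and 1 lower, the chemokine gene CXCL12 (-1.01), against 0.869% and 1.34% of all genes tested. CEBPB, a transcription factor of myeloid cells and many other tissues, was at 11.8, 13.7 and 12.1 CPM on the left and 2.33, 4.14 and 3.28 CPM on the right at E5 (log2 1.95 ± 0.46, adjusted p = 0.022, edgeR). At E9.5 it was at 11.3, 11.6 and 10.2 CPM against 2.47, 2.87 and 4.71 CPM (1.72 ± 0.46, adjusted p = 0.019), so that left was above right at both ends, and at E6.5 it was called as well (2.12 ± 0.48, adjusted p = 0.017). The E5 call was lost without left replicate 2 or 3 or right replicate 1 or 3, the E6.5 call without left replicate 3 or right replicate 1 or 2, and the E9.5 call without right replicate 1 or 2. Over all settings adjusted p ran from 4.3e-04 to 0.11 at E5, from 3.5e-04 to 0.075 at E6.5 and from 4.6e-04 to 0.073 at E9.5. Its difference between the stages was -0.22 ± 0.64 (adjusted p = 0.92).

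CEBPA, a factor needed for granulocyte formation in mammals, was lower on the left at E8 (-2.15 ± 0.34, adjusted p = 3.5e-04) and E9.5 (-1.77 ± 0.34, adjusted p = 0.0024, edgeR). Both CEBPA calls held under every setting tried, but those settings do not remove all liver transcripts. A list of liver genes was likewise higher on the right at E8, at 1372 to 3701 CPM against 571 to 794 CPM. At E9.5 it summed to 794 to 2208 CPM on the right against 597 to 827 CPM. The part of liver transcripts in the CEBPA differences was not tested. MYB, a factor of blood progenitors, was higher on the left at E8 (0.84 ± 0.22, adjusted p = 0.017) and at E9.5 (0.84 ± 0.22, adjusted p = 0.019). The first call was lost without left replicate 3 or right replicate 1 or 2 and the second without left replicate 1 or right replicate 2, with adjusted p over all settings from 0.0030 to 0.082 and from 0.0019 to 0.090. CSF3R, the receptor through which granulocyte colony-stimulating factor acts, was at 0.304 to 2.81 CPM and not called between sides at any stage, with adjusted p from 0.36 at E8 to 0.96 at E5. At E5 it was at 1.45, 1.58 and 2.29 CPM on the left and 1.94, 2.07 and 2.17 CPM on the right. The oxidase subunits of phagocytes, 6 of 6 tested, had 0 calls at E5 by edgeR, where 3 had an unadjusted p under 0.05 and the median difference was -0.24. Of the 6, 1 was called higher on the left at E8 and 1 lower at E9.5, beside 7.54% and 7.87% of all genes tested. From E5 to E9.5, 3 were lower and 0 higher in the left gonad, against 16% and 18.2% of all genes tested. In the right gonad 1 was lower and 1 higher, against 16.1% and 21.5%.

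Markers of other cells did not follow the same course as the granule genes. That contrast too carries no weight, because the granule genes were selected by their course. Macrophage genes, of which 15 of 18 names were in the table, were lower on the left at E5 in 5 of 14 tested and higher in 0, with a median of -0.67, where 1.02% of all genes tested were called lower. CSF1R, the receptor that macrophages need, was at 41.6 CPM on the left and 64.7 CPM on the right at E5 (log2 -0.64 ± 0.17, adjusted p = 0.046, edgeR) and on the same side at E9.5 (-0.72 ± 0.17, adjusted p = 0.010). Its E5 call was lost without any 1 of the 6 libraries and its E9.5 call without left replicate 3 or right replicate 1, with adjusted p up to 0.20 and 0.14. The summed macrophage level was 227 to 257 CPM on the left against 360 to 403 CPM on the right at E5, and 173 to 197 CPM against 300 to 333 CPM at E9.5. At E6.5 it was 170 to 244 CPM against 241 to 282 CPM and at E8 147 to 169 CPM against 274 to 326 CPM. The left library with the highest macrophage sum at E5, E6.5 and E9.5 was replicate 3 each time, as for the summed granule genes. The part of macrophages in the granule genes' differences was not tested.

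The pan-leukocyte sum, over 8 of 12 names, was 202 to 256 CPM on the left and 230 to 286 CPM on the right at E5, and 150 to 189 CPM against 198 to 213 CPM at E9.5. It was thus not higher on the left at E5, when the granule genes were. Red blood cell genes, 11 of 18 names, summed to 3281 to 8138 CPM on the left and 3160 to 8591 CPM on the right at E5. At E9.5 they stood at 2850 to 3987 CPM on the left and 4973 to 7323 CPM on the right, the same order as the granule genes. At E5 left replicate 3, the library with the most granule transcripts, they were at their lowest on the left. At E6.5, E8 and E9.5, however, left replicate 3 was the highest left library in both sums. Red blood cell genes were there at 12246, 5552 and 3987 CPM.

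Mesonephros genes, of which 17 of 21 names were in the table, were higher in sum on the right at E9.5, like the granule genes. At E5 the mesonephros genes overlapped between sides. Their sum was 237 to 517 CPM on the left and 764 to 3080 CPM on the right at E9.5, against 230 to 753 and 213 to 1120 CPM at E5. Liver genes, 18 of 18, summed to 597 to 827 CPM on the left and 794 to 2208 CPM on the right at E9.5. At E8 liver genes were at 571 to 794 CPM on the left and 1372 to 3701 CPM on the right, where the granule genes had no clear side. Mesonephros genes were likewise higher on the right at E8, at 341 to 462 CPM against 556 to 2726 CPM. So were red blood cell genes, at 4523 to 5552 CPM against 6556 to 8264 CPM. At E6.5 the mesonephros sums overlapped, at 162 to 1265 CPM against 559 to 3350 CPM. The part of mesonephros, liver or blood in the E9.5 difference was not tested.

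**Figure D4:**
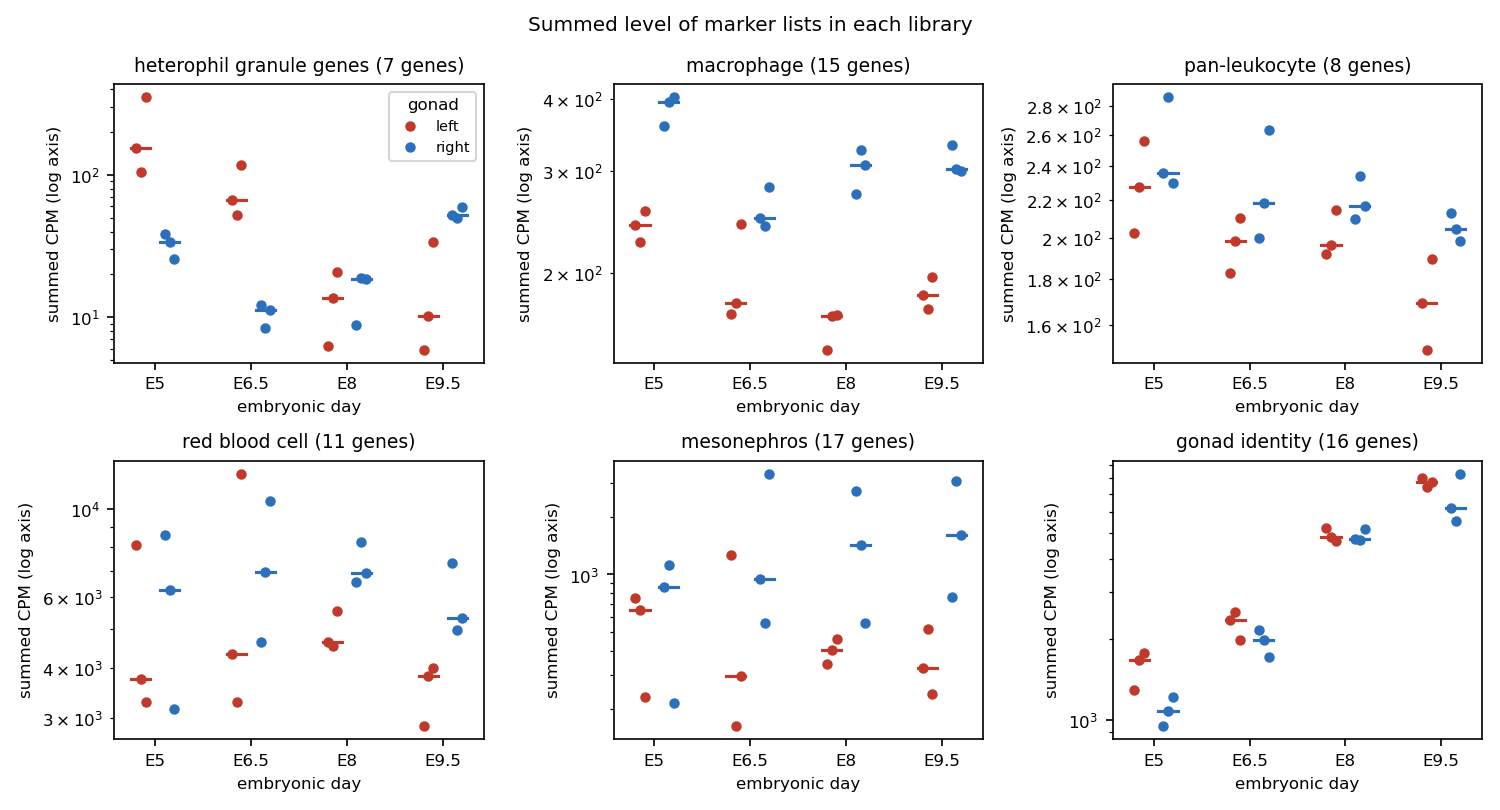
Summed level of 6 gene lists in each of the 24 libraries, in CPM on log axes by embryonic day; points are libraries (red left, blue right) and bars medians of 3. The 7 granule genes are the only list of the 6 shown whose left libraries all lie above the right ones at E5 and all below them at E9.5. They were selected by that change, so the contrast with the other lists carries no weight. The other granulocyte effector genes, not drawn, summed to 115 to 220 CPM on the left and 100 to 117 CPM on the right at E5. At E9.5 they summed to 57.7 to 62.2 CPM against 77.8 to 95.9 CPM.

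Of the lists not drawn, lymphocyte genes, with 16 of 16 names in the table, summed to 26.7 to 29.8 CPM on the left and 24.04 to 31.4 CPM on the right at E5, and thrombocyte genes, 8 of 12, to 326 to 373 CPM against 394 to 525 CPM. Blood progenitor and mast cell genes, 11 of 12, summed to 219 to 239 CPM on the left and 250 to 364 CPM on the right. Endothelial genes, 14 of 15, summed to 861 to 947 CPM and 878 to 1187 CPM, and stroma genes, 12 of 12, to 3843 to 4777 CPM and 4377 to 6449 CPM. None of these 5 lists had all left libraries above all right ones at E5. The gonad marker genes did, with 1289, 1672 and 1781 CPM on the left and 942, 1073 and 1217 CPM on the right, and 5 of 16 were called higher and 0 lower. At E9.5 their sums overlapped between sides, with 4 of 16 called higher on the left and 0 lower. Their part in the granule genes' E5 difference was not tested.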

How the data were processed

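The authors deposited 1 table of whole-number, unnormalized read counts, with a column for each of the 24 libraries. The submitters' processing notes name Trim Galore 0.6.7, STAR 2.7.10a, HTSeq 2.0.0 and the build GRCg6a, and the strand setting is not given in the sources used here. Column names carry the stage as E6 and E9 where the titles give E6.5 and E9.5.

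The table has 24154 genes, of which 1617 had no reads. For testing, edgeR 4.0.16 was run in R 4.3.3 with limma 3.58.1 on the 16694 genes kept by filterByExpr (minimum count 10, minimum total 15), with TMM factors and 1 quasi-likelihood model of the 8 group means over all libraries. The Benjamini-Hochberg adjustment took in every gene of the fit, a gene was called at an adjusted p under 0.05, and the SE is the size of the log2 change over the root of its F statistic. CPM use TMM-scaled totals, and correlations use log2 CPM with a prior count of 2. The procedure was also run on simulated data made from the same libraries, with the side contrasts at E5, E8 and E9.5 scored. The change in side difference was not scored there, and the outcome is not reported here. Other settings were DESeq2 1.42.0, RLE factors, no filter, the compared libraries alone, replicate blocks, 1 library left out, and 2 libraries left out for their liver transcripts. That last setting does not remove all such transcripts: liver genes summed to 1372 to 3701 CPM in the E8 right libraries, against 571 to 794 CPM in the E8 left ones.

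Same-numbered left and right libraries deviated together from their group means over the 1000 most variable genes at E5 (r 0.50, 0.47 and 0.70) and E9.5 (0.19, 0.59 and 0.17), past the 0.1 required, and not at E6.5 (-0.23, 0.70 and 0.08) or E8 (-0.15, 0.05 and 0.05). This pairing comes from the data, since the labels give only the numbers. Chi-square per degree of freedom between libraries of a group ran from 8.36 to 63.0, more than counting noise between 2 runs of 1 library would give; repeat preparations of 1 RNA or pool are not excluded by this.

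The members and the gene lists were chosen with earlier results of these data known. Tests of the members had been planned at E5 and E9.5 and between those stages, but are given as a description because those contrasts make up the ranking that picks the members. Genes named are the 7 members, the 10 most like them with a symbol, and up to 4 called genes per list and comparison. MPO, MMP9, CSF3R, AvBD7 in the right gonad, LYGL in the left, RSFR in the change of side difference, MYB at E8 and neighbouring genes were named after their values were seen. No reference sequences of the files' build were used, so none are printed.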

Additional observations from a re-analysis of the deposited data

Results flagged for a closer look

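The left-right difference changed from E5 to E9.5 in all 7 members and in 5 other genes of granulocytes, by the edgeR test of the change itself over all genes. For the members that change is what they were selected on, so it is no independent result: it was -5.89 on the log2 scale for SERPINB10B, -4.65 for PI3, -4.43 for S100A9, -4.30 for LYG2, -4.25 for LECT2, -4.11 for AvBD2 and -4.09 for CAMP. The other 5 were AvBD6 at -4.67, AvBD1 at -4.09, AvBD4 at -4.00, CATH1 at -3.58 and RSFR at -3.18. AvBD1 and RSFR stand at places 11 and 13 in the ranking that picks the members. AvBD6, AvBD4 and CATH1 come from the same list, made with earlier results known, and are tested on the same contrast. None of these 5 is an independent result either. With each of 12 libraries left out in turn, the call was lost in 11 fits for AvBD6, 10 for CATH1 and 5 for AvBD4. For all 12 the fitted difference was above 0 at E5 and below 0 at E9.5, but at single stages not all passed the test: at E5 LYG2, LECT2, AvBD4, AvBD6 and CATH1 were not called, and at E9.5 PI3 and SERPINB10B were the 2 called. No explanation was tested.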

How the results depend on the processing

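No result reversed its direction under any setting tried. Among the members, calls numbered 2 to 5 at E5 and 0 to 5 at E9.5 with 1 library left out, against 5 and 2 in the fit reported. At E5 they numbered 5 with the replicate block, 7 with the block within stage and 6 with DESeq2. At E9.5 these counts were 5, 6 and 2. At E8 the count was 0 in every setting. Between E5 and E9.5 it was 6 on the left in every one, 2 on the right except for 3 in a fit limited to the libraries compared, and 5 to 7 for the change in side difference with 1 library left out. The fit with the block changed no other member count by more than 1.5 times. Of the other granulocyte effector genes, 0 to 3 were called at E5, 0 to 3 at E6.5, 0 to 1 at E8, 0 to 4 at E9.5 and 2 to 5 for the change in side difference with 1 library left out, against 2, 3, 1, 3 and 5 in the fit reported. With the block 4 were called at E5 and 5 at E9.5, and with the block within stage 5 and 6. When only the libraries compared were fitted, 1 was called at E5, 0 at E6.5, 2 at E8, 1 at E9.5 and 3 for the change in side difference. DESeq2 called 5 at E6.5, and 2 were called at E8 with no filter on low counts. The log2 difference of SERPINB10B at E6.5 was 2.61, and 1.62 without left replicate 3. The causes were not tested. Low counts limit single groups, such as PI3 in the E5 right libraries (2 to 5 reads) and CAMP in the E6.5 right ones (3 to 5).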
